A study of Mus musculus with 36 samples.

Results

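The genes described here are 32 genes of sterol and fatty acid synthesis, measured by RNA sequencing in mouse CD4 T cells. They were chosen by symbol out of the 45706 gene identifiers in each count table, as 18 enzymes of the sterol pathway, 10 genes of fatty acid synthesis and its branches, and 4 genes that regulate the pathways or carry sterol. All 32 symbols were found once each. The study compared wild-type C57BL/6J mice with a strain on the same background named Ets1-SE-KO, a name that points to loss of a super-enhancer of Ets1, the gene of a T cell transcription factor. Spleen was the source of the CD4 T cells, and naive cells were taken with beads that remove other cell types. The sources used here do not give the deleted interval, the age or the number of mice.

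The first cultures gave 3 KO Th1, 3 WT Th1, 3 KO Th2 and 3 WT Th2 libraries. Uncultured naive cells gave 2 KO and 2 WT libraries. Th1 cells had been grown for 6 days on plate-bound antibody to CD3 with antibody to CD28, interleukin 12 at 10 ng/mL and interleukin 2 at 1 ng/mL. The sources used here do not describe the Th2 culture. A second Th1 experiment gave 4 libraries of KO cells transduced to express Ets1 from a retrovirus (Ets1-RV), 4 of WT cells given an empty vector (EV), 2 untransduced KO and 2 untransduced WT libraries. In 8 further libraries the title and the transduction label named different viruses, and these entered no comparison. The labels do not say that libraries of a group came from separate mice or cultures, so p-values reflect only how these libraries vary, and that variation may be technical. Titles carry a B and a T number of unstated meaning. All naive and first-culture libraries share B number 1 and were treated as separate samples by T number, while in the second experiment libraries of a group with the same B number were summed. Were the B number the biological replicate in both sets, each naive and first-culture group would be 1 sample, and its tests would cover only the spread between T numbers.

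Sterols and fatty acids are both built from cytosolic acetyl-CoA. The sterol enzymes run through mevalonate and squalene to cholesterol, and the fatty acid enzymes make palmitate and then lengthen and desaturate it. Both sets of genes are classical targets of the transcription factors SREBP-1 and SREBP-2, encoded by Srebf1 and Srebf2, which the Insig proteins hold in the endoplasmic reticulum while sterol is plentiful. T cells are known to turn on this programme when they are activated, since growing and dividing cells need new membrane.

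Promoter sequence was available for 25 of the 32 genes, in 31 windows that run from 250 bases before to 50 bases after an annotated start (RefSeq, GRCm38.p6). Motifs were searched on both strands of these windows. The SREBP site TCACNCCAC was in 1 window, that of Hmgcs1, or 3.23% of the member windows, and in 1.24% of 32851 windows over all genes. The E-box CACGTG, which SREBP proteins can also bind, was in the windows of Hsd17b7, Insig1, Dhcr7 and Sc5d, or 12.9% of member windows against 7.15% of all windows. Boxes of the partner factors NF-Y (CCAAT) and Sp1 (GGGCGG) were each in 14 of the 15 sterol enzymes with a window and in 3 of the 7 fatty acid genes with a window. The NF-Y box was in 67.7% of member windows and 37.4% of all windows, and the Sp1 box was in 71.0% of member windows and 35.7% of all windows. The Hmgcs1 stretch is shown because its gene is the first enzyme committed to mevalonate and holds the SREBP site, and the Insig1 stretch because Insig1 closes the sterol feedback loop. Capitals mark the SREBP site in Hmgcs1 (chr13:119690164-119690272, plus strand) and the E-box in Insig1 (chr5:28071261-28071366, plus strand), which lie 137 and 101 bases before the annotated start.
Hmgcs1: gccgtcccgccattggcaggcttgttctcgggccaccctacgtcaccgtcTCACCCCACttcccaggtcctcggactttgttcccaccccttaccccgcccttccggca
Insig1: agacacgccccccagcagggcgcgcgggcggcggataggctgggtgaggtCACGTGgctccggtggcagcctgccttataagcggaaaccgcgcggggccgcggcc
These matches describe letters in a window and say nothing about binding in these cells.

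Levels are given in CPM, counts relative to the TMM-scaled library size. The naive libraries held 5069623 to 5852673 gene counts each, those of the first cultures 7311614 to 10256407, and the compared libraries of the second experiment 1813288 to 6844944. T cell markers were abundant in every group, and the adipocyte and hepatocyte markers Adipoq, Plin1, Alb and Apoa1 summed to at most 0.299 CPM in any library. Ets1 was at 590.3 and 611 CPM in naive KO cells and 1529.7 and 1528 CPM in naive WT cells. It was at 513, 470.4 and 537 CPM in KO Th1 cells, against 634, 725 and 697 CPM in WT Th1 cells, and at 602, 627 and 622 CPM in KO Th2 cells, against 746, 707 and 710.00 CPM in WT Th2 cells. In the second experiment it was at 515, 497, 431 and 425 CPM in Ets1-RV KO cells, 394, 387, 376 and 389 CPM in EV WT cells, 244 and 267 CPM in untransduced KO cells and 418 and 457 CPM in untransduced WT cells. Every KO library without Ets1-RV was thus below the WT libraries of its own state. Several of the 32 genes have uncertain counts: Fdps shares its strand and position with another annotated gene and has near copies, Tm7sf2 overlaps Vps51, Scd1 and Scd2 are close paralogs, and Acat2 and Idi1 have near relatives.

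**Figure D1:**
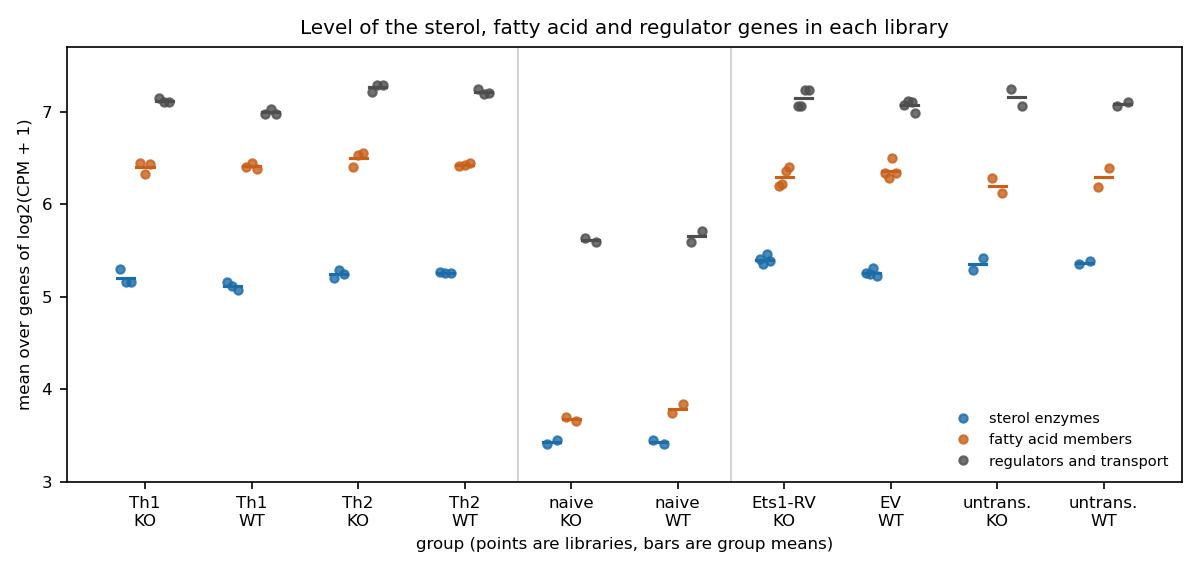
Mean over genes of log2(CPM + 1) for the 18 sterol enzymes, the 10 fatty acid genes and the 4 regulators in each of 28 libraries; points are libraries and bars are group means. Every cultured library lies above every naive library in all 3 groups of genes. KO and WT means of a state differ by far less than that. Even so, the regulators are higher in every KO Th1 library than in any WT Th1 library. The fatty acid genes are lower in both naive KO libraries than in either naive WT library.

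All 3 groups of genes were low in naive cells and high in every culture. As a summary level, the mean of log2(CPM + 1) over the sterol enzymes was 5.16, 5.12 and 5.07 in WT Th1 cells and 5.27, 5.26 and 5.25 in WT Th2 cells, against 3.45 and 3.40 in naive WT cells. For the fatty acid genes it was 6.40, 6.45 and 6.38 in WT Th1 cells and 6.42, 6.42 and 6.44 in WT Th2 cells, against 3.74 and 3.83 in naive WT cells. No cultured library overlapped a naive library in either summary. The difference in this summary between WT Th1 and naive WT cells was 1.69 for the sterol enzymes and 2.62 for the fatty acid genes. In WT Th1 cells the order of the 2 groups depends on the summary used. There the median log2 fold change was 1.97 over the sterol enzymes and 1.72 over the fatty acid genes, with all genes tested at a median of 0.10. In WT Th2 cells the medians were 1.92 and 2.09, with all genes at 0.08. Over naive KO cells they were 2.12 and 2.36 in KO Th1 cells and 1.96 and 2.76 in KO Th2 cells. Only in WT Th1 cells was the sterol median the higher. Setting Me1 and Fads2, which had almost no naive counts, to the lower bounds given below left the fatty acid medians unchanged. Both bounds lie above the medians, so the medians could not have moved. The mean log2 fold change over the fatty acid genes fell from 3.59 to 2.97 in WT Th1 cells. The plot of gene group levels by library shows the same separation.

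**Figure D2:**
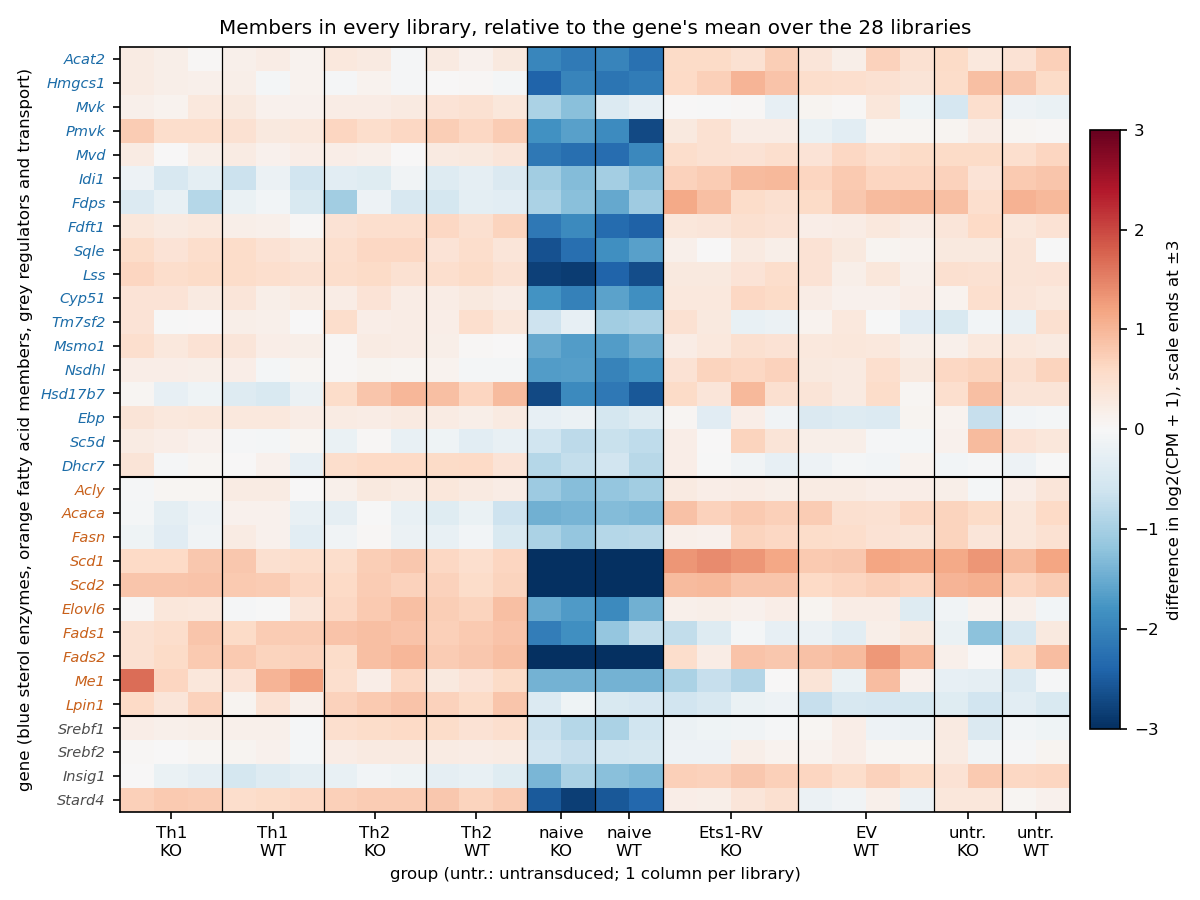
Difference of log2(CPM + 1) from the gene's own mean over 28 libraries, with 1 row per gene and 1 column per library; the colour scale ends at 3 in either direction. The 4 naive libraries are the low block in nearly every row, and Ebp and Lpin1 have the mean naive level closest to their overall mean.

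Per kilobase of exon the order of levels also differed between states, as a description. In WT Th1 cells Scd2, a stearoyl-CoA desaturase, led with 238 CPM per kilobase. Acly, which makes cytosolic acetyl-CoA from citrate, followed with 80.99 CPM per kilobase and Srebf2 with 41.9, while Fdps was lowest at 0.605. In naive WT cells Acly led at 33.3 CPM per kilobase, ahead of Srebf2 at 27.8 and Fasn at 16.6, and Scd2 stood at 4.97. Scd2 was thus the 10th of 32 genes in naive WT cells and the first in WT Th1 cells.

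The first comparison asks how the genes differ between cultured helper cells and naive cells. By edgeR's quasi-likelihood test all 32 genes rose in WT Th1 and in WT Th2 cells over naive WT cells, where 40.0% and 40.2% of all 14029 genes tested were higher. In KO cells 31 of 32 rose in each fate, where 40.3% of genes were higher in Th1 and 39.9% in Th2. The exception in both was Fdps, which makes farnesyl diphosphate (adjusted p = 0.0729 in KO Th1 and 0.0829 in KO Th2). The state of the cells, 6 days of culture for Th1, and the set of libraries coincide in this comparison and cannot be told apart. In KO cells sex-linked expression coincides with them as well. Xist was at 165 to 266 CPM in KO Th1 and 193 to 285 CPM in KO Th2 cells, against 0 in naive KO cells. The Y-linked Ddx3y was at 0 in KO Th1 and KO Th2 cells, against 97.3 to 112 CPM in naive KO cells. In bulk RNA a larger share of cells making a transcript and more transcript per cell cannot be told apart either.

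Among the sterol enzymes Lss, Pmvk, Fdft1 and Acat2 had the largest fold changes in WT Th1 over naive WT cells, and Mvd followed at 2.35 ± 0.14 SE (log2). Lss, which folds epoxidised squalene into lanosterol, had 101, 97.8 and 95.1 CPM in WT Th1 cells and 98.6, 103 and 95.1 CPM in WT Th2 cells, against 12.1 and 10.1 CPM in naive WT cells (log2 fold change 3.05 ± 0.11 SE, adjusted p = 1.98e-18 for Th1). Pmvk, phosphomevalonate kinase, had 36.2, 32.4 and 33.03 CPM in WT Th1 cells and 44.6, 41.2 and 45.4 CPM in WT Th2 cells, against 6.35 and 3.18 CPM in naive WT cells (log2 fold change 2.74 ± 0.18 SE, adjusted p = 4.36e-13 for Th1). Fdft1, squalene synthase, had 129, 126 and 117 CPM in WT Th1 cells and 177, 159 and 181 CPM in WT Th2 cells, against 22.1 and 20.2 CPM in naive WT cells (log2 fold change 2.47 ± 0.10 SE, adjusted p = 2.22e-17 for Th1). Every cultured library of these 3 genes stood far above both naive libraries. Acat2, which joins acetyl-CoA units, had 25.5, 26.7 and 24.7 CPM in WT Th1 cells and 27.4, 25.1 and 27.9 CPM in WT Th2 cells, against 5.05 and 4.05 CPM in naive WT cells (log2 fold change 2.41 ± 0.17 SE for Th1). Hsd17b7, a ketoreductase of the demethylation steps, had 21.3, 20.5 and 25.04 CPM in WT Th1 cells and 53.8, 44.5 and 55.5 CPM in WT Th2 cells, against 5.63 and 4.05 CPM in naive WT cells. Its log2 fold change was 3.30 ± 0.21 SE in Th2, the largest of the sterol enzymes there, and 2.12 ± 0.22 SE in Th1.

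Hmgcs1, Sqle and Cyp51 rose as well. Hmgcs1, HMG-CoA synthase, had 179, 152 and 171 CPM in WT Th1 cells and 160.05, 165 and 154 CPM in WT Th2 cells, against 34.2 and 36.3 CPM in naive WT cells (log2 fold change 2.16 ± 0.11 SE for Th1). Sqle, the squalene epoxidase, had 89.5, 83.1 and 77.8 CPM in WT Th1 cells and 81.5, 87.5 and 78.5 CPM in WT Th2 cells, against 16.2 and 18.9 CPM in naive WT cells (log2 fold change 2.16 ± 0.12 SE for Th1). Cyp51, the lanosterol demethylase, had 157, 138 and 144 CPM in WT Th1 cells and 143, 149.6 and 144 CPM in WT Th2 cells, against 39.4 and 33.5 CPM in naive WT cells (log2 fold change 1.92 ± 0.10 SE for Th1). Cultured and naive libraries of the 3 genes did not overlap. Idi1, the isopentenyl diphosphate isomerase, stayed low, with 6.84, 9.96 and 7.33 CPM in WT Th1 cells and 8.37, 9.21 and 8.10 CPM in WT Th2 cells, against 5.05 and 4.05 CPM in naive WT cells (log2 fold change 0.73 ± 0.22 SE, adjusted p = 0.005 for Th1). Its call in WT Th1 cells was lost without naive WT library 2, as that of Fdps was without naive WT library 1. The smallest differences in WT Th1 cells were those of Mvk, mevalonate kinase, at 0.47 ± 0.14 SE and of the late enzymes Dhcr7, Sc5d and Ebp at 0.62, 0.65 and 0.70 (log2).

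The fatty acid genes split into 4 with very large differences and 6 with modest ones. Scd2 had 1365, 1323 and 1212 CPM in WT Th1 cells and 1276, 1160.5 and 1240.3 CPM in WT Th2 cells, against 28 and 26.3 CPM in naive WT cells (log2 fold change 5.50 ± 0.094 SE, adjusted p = 2.7e-24 for Th1). Its paralog Scd1 had 189, 151 and 155 CPM in WT Th1 cells and 166, 153 and 168 CPM in WT Th2 cells, against 1.88 and 2.46 CPM in naive WT cells (log2 fold change 6.16 ± 0.18 SE, adjusted p = 3.58e-20 for Th1). Both enzymes put the first double bond into saturated fatty acids. Fads2, a desaturase of polyunsaturated fatty acids, had 36.6, 33.5 and 34.4 CPM in WT Th1 cells and 35.9, 37.3 and 39.8 CPM in WT Th2 cells, against 1 count in the 2 naive WT libraries together. The ratio of WT Th1 to naive WT was 482, with a 95% counting interval of the naive count that runs from 86.6 to 19049. Me1, a malic enzyme that supplies NADPH, had 2.55, 4.39 and 5.27 CPM in WT Th1 cells and 2.27, 2.55 and 2.98 CPM in WT Th2 cells and no count in naive WT cells. Against a floor of 3 counts over both naive WT libraries it was at least 18.8-fold higher in WT Th1 cells and at least 12-fold higher in WT Th2 cells.

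Fatty acid synthase itself was among the genes with modest differences. Fasn had 389, 355 and 263 CPM in WT Th1 cells and 278, 306 and 239 CPM in WT Th2 cells, against 180.3 and 183 CPM in naive WT cells (log2 fold change 0.80 ± 0.12 SE for Th1 and 0.49 ± 0.12 SE for Th2). Acaca, which makes malonyl-CoA for it, had 57.9, 57.2 and 44.98 CPM in WT Th1 cells and 40.8, 45.8 and 33.6 CPM in WT Th2 cells, against 20.8 and 19.9 CPM in naive WT cells (log2 fold change 1.30 ± 0.14 SE for Th1). Lpin1, a phosphatidate phosphatase of glycerolipid synthesis, had 61.2, 77.5 and 64.3 CPM in WT Th1 cells and 93.2, 86.7 and 102 CPM in WT Th2 cells, against 41.7 and 40.5 CPM in naive WT cells (log2 fold change 0.63 ± 0.12 SE for Th1). The libraries of these 3 genes did not overlap between cultured and naive cells, but Fasn, Acaca and Lpin1 were already well expressed before culture. Acly, Elovl6 (an elongase) and Fads1 (a desaturase) differed by 1.20, 1.77 and 1.68 on the log2 scale in WT Th1 cells.

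Of the 4 regulators and carriers, the sterol carrier Stard4 stood apart. Stard4 had 151, 157 and 162 CPM in WT Th1 cells and 184, 167 and 179 CPM in WT Th2 cells, against 17.03 and 19.7 CPM in naive WT cells (log2 fold change 3.01 ± 0.099 SE, adjusted p = 3.1e-19 for Th1). Insig1 had 49.9, 54.4 and 58.2 CPM in WT Th1 cells and 58.97, 61.6 and 55.3 CPM in WT Th2 cells, against 29.7 and 28.2 CPM in naive WT cells (log2 fold change 0.82 ± 0.12 SE for Th1). The 2 SREBP genes rose as well. Srebf1 had 105, 105 and 91.9 CPM in WT Th1 cells and 138, 126 and 133 CPM in WT Th2 cells, against 48.4 and 61.4 CPM in naive WT cells (log2 fold change 0.79 ± 0.098 SE for Th1 and 1.17 ± 0.098 SE for Th2). Srebf2 had 308, 315 and 280.00 CPM in WT Th1 cells and 346, 339 and 344 CPM in WT Th2 cells, against 198 and 202 CPM in naive WT cells (log2 fold change 0.51 ± 0.068 SE for Th1). All cultured libraries of these 4 genes lay above the naive ones.

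**Figure D3:**
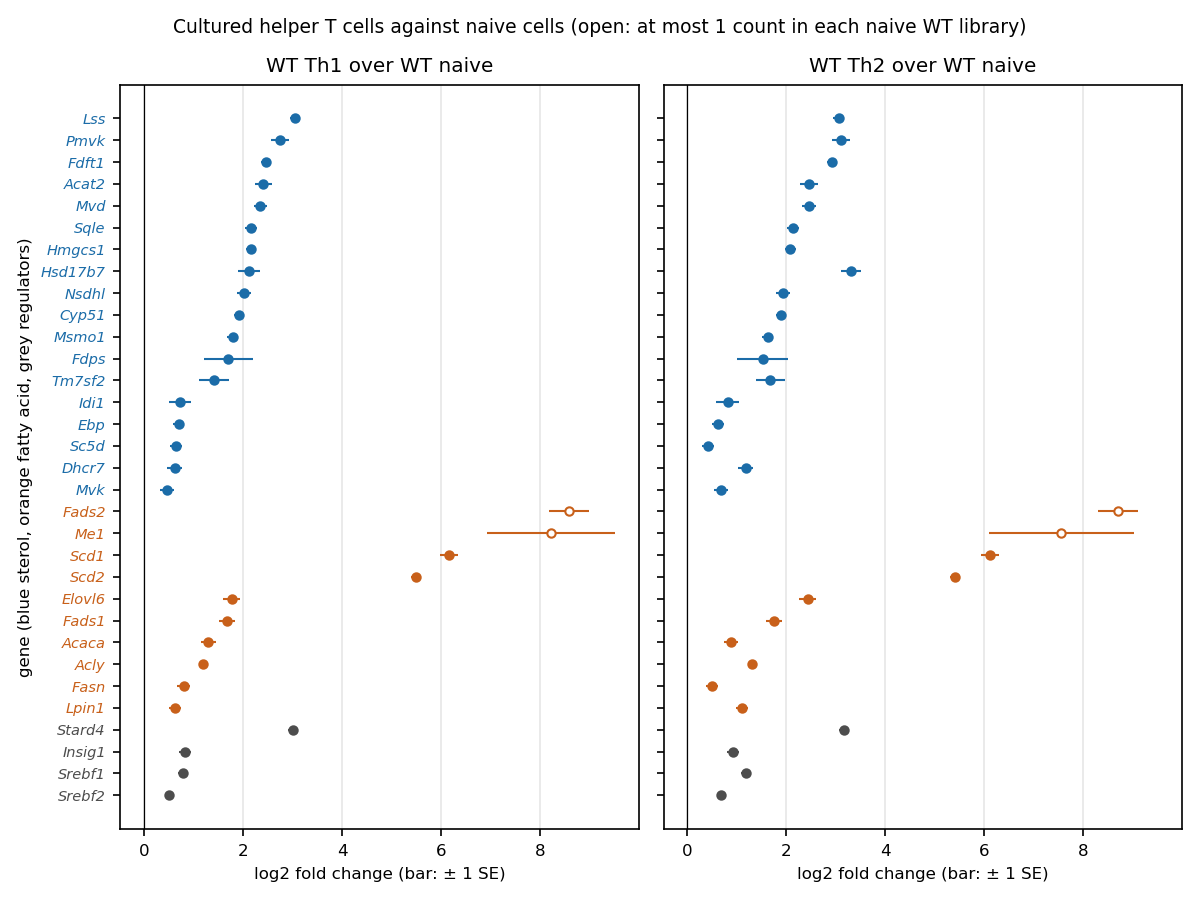
Log2 fold change of each gene, WT Th1 over naive WT on the left and WT Th2 over naive WT on the right, with bars of 1 standard error; open points mark Fads2 and Me1, whose fitted values depend on the prior count since naive WT libraries held at most 1 count. All 32 points lie right of 0, with Scd1 and Scd2 far from the other filled points.

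In KO cells Lss led the sterol enzymes in both fates. Lss had 107, 98.9 and 103 CPM in KO Th1 cells and 99.9, 104 and 95.5 CPM in KO Th2 cells, against 9.07 and 8.66 CPM in naive KO cells (log2 fold change 3.46 ± 0.12 SE for Th1). Mvd, which decarboxylates mevalonate diphosphate, had 41.4, 35.3 and 39.4 CPM in KO Th1 cells and 40.2, 38.9 and 34.95 CPM in KO Th2 cells, against 7.09 and 6.42 CPM in naive KO cells (log2 fold change 2.44 ± 0.15 SE for Th1). Pmvk had 45.5, 38.4 and 38.01 CPM in KO Th1 cells and 41.6, 37.98 and 40.7 CPM in KO Th2 cells, against 6.76 and 7.76 CPM in naive KO cells (log2 fold change 2.40 ± 0.17 SE for Th1). Cultured libraries stood far above naive ones for these 3 sterol enzymes. Stard4 had 172, 183 and 177 CPM in KO Th1 cells and 172, 177 and 179 CPM in KO Th2 cells, against 17.5 and 14.03 CPM in naive KO cells (log2 fold change 3.42 ± 0.10 SE for Th1). Scd1 and Scd2 had log2 fold changes of 7.03 ± 0.20 SE and 5.01 ± 0.091 SE in KO Th2 over naive KO cells. Me1 had 7.59, 3.18 and 2.36 CPM in KO Th1 cells and 2.78, 2.06 and 3.10 CPM in KO Th2 cells with no count in naive KO cells, so it was at least 18.6-fold higher in KO Th1 and at least 11.3-fold higher in KO Th2 cells. Fads2 had 2 counts over the naive KO libraries, and the ratio of KO Th1 to naive KO was 207, with a 95% counting interval of the naive count that runs from 57.3 to 1708. The call for Tm7sf2, a sterol reductase, in KO Th1 cells was lost under 5 of 9 alternatives, among them leaving out naive KO library 1 or KO Th1 library 1.

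Other lipid genes moved in both directions between WT Th1 and naive WT cells. Of 17 tested genes of sterol sensing, uptake and efflux, 11 rose and 3 fell. Beside this and the other lists, 40.0% of all genes rose in WT Th1 cells, and the share that fell is not given. Vldlr, a lipoprotein receptor, had 44.7, 59.3 and 69.2 CPM in WT Th1 cells and no count in naive WT cells, so it was at least 267-fold higher. Mylip, a ubiquitin ligase that degrades lipoprotein receptors, had 1.73, 1.95 and 0.824 CPM in WT Th1 cells, against 69.1 and 69.2 CPM in naive WT cells (log2 fold change -5.62 ± 0.17 SE), and the HDL receptor Scarb1 rose by 2.54. The 2 receptor genes were thus higher and the ligase gene lower in WT Th1 cells. Of 8 genes of isoprenoid branches, which use farnesyl diphosphate for other ends, 2 rose and 2 fell, among them Fnta at 1.02, Ggps1 at -1.20 and Fntb at -1.24 (log2). Of 17 other genes of fatty acid synthesis and activation, 12 rose and 2 fell. The citrate carrier Slc25a1 rose by 2.40 ± 0.12 SE and the fatty acid binding protein gene Fabp5 by 3.73 ± 0.15 SE (log2). Dgat2, a triglyceride synthase, had 4.01, 4.10 and 5.44 CPM in WT Th1 cells and 2 counts over the naive WT libraries, a ratio of 31.3 with a 95% counting interval of the naive count from 8.66 to 258. Of 9 tested genes of fatty acid oxidation, 6 rose and 2 fell, with Acadl at 3.33, Cpt2 at 2.12 and Hadhb at -1.33 (log2).

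WT Th2 cells, where 40.2% of all genes rose, gave similar counts in those lists. There 9 of 17 sterol sensing genes rose and 4 fell, 2 of 8 isoprenoid genes rose and 2 fell, 13 of 17 other fatty acid genes rose and 1 fell, and 6 of 9 oxidation genes rose and 1 fell. In WT Th2 cells Mylip was at -5.71, Scarb1 at 2.84, Fabp5 at 3.73, Slc25a1 at 2.83 and Cpt2 at 2.65 relative to naive WT cells (log2). Vldlr was at least 380-fold higher in WT Th2 than in naive WT cells. Other markers moved with this comparison. All 11 proliferation genes rose in WT Th1 cells, where 40.0% of all genes did. Their summed level was 2259.7 to 2512 CPM in WT Th1 cells and 249 to 256 CPM in naive WT cells. Of 8 genes induced by handling of cells 7 fell, with summed levels of 697 to 706 CPM in WT Th1 cells and 3019.6 to 3079 CPM in naive WT cells. The mitochondrial share of gene counts was 7.40% to 9.78% in the first cultures and 12.6% to 16.7% in naive cells, and the unmapped share of reads 40.4% to 50.3% in the first cultures and 30.6% to 35.9% in naive cells. Erythroid markers summed to 0.365 to 0.488 CPM in WT Th1 cells and 15.2 CPM in each naive WT library, and CD8 T cell markers to 3.95 to 5.86 CPM in WT Th1 cells and 14.6 to 14.7 CPM in naive WT cells. Markers of myeloid cells summed to 0.365 to 0.659 CPM in WT Th1 cells and 9.68 to 12.6 CPM in naive WT cells. The part of these in the differences of the lipid genes was not tested.

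The second comparison asks how the 2 helper fates differ. Th1 markers summed to 208 to 349 CPM in KO Th1 and 511 to 886 CPM in WT Th1 cells, against at most 7.42 CPM in Th2 cells. Th2 markers summed to 347 to 738 CPM in KO Th1 cells and 155 to 324 CPM in WT Th1 cells. They summed to 646 to 707 CPM in KO Th2 cells and 631 to 683 CPM in WT Th2 cells. The highest KO Th1 library thus lay above every Th2 library in Th2 markers, and the part of this was not tested. In WT cells 10 of the 32 genes changed between Th1 and Th2, where 29.5% of all 12616 genes tested did, so the share of the lipid genes was close to that of all genes. Of these 10 genes, 9 were lower in Th1 cells and 1 was higher. The shares of all genes called lower and called higher are not given, so this split cannot be set against theirs. The sterol enzymes had 4 lower, the fatty acid genes 2 lower and 1 higher, and the regulators 3 lower. The median log2 fold change was -0.04 over the sterol enzymes, -0.028 over the fatty acid genes and -0.18 over the regulators, with all genes at -0.01.

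Hsd17b7 differed most, with 21.3, 20.5 and 25.04 CPM in WT Th1 cells, against 53.8, 44.5 and 55.5 CPM in WT Th2 cells (log2 fold change -1.20 ± 0.12 SE, adjusted p = 5.9e-07). Dhcr7, which reduces the last precursor of cholesterol, had 28.3, 30.9 and 23.5 CPM in WT Th1 cells, against 42.3, 42.9 and 37.7 CPM in WT Th2 cells (log2 fold change -0.57 ± 0.12 SE, adjusted p = 0.000886). Fdft1 had 129, 126 and 117 CPM in WT Th1 cells, against 177, 159 and 181 CPM in WT Th2 cells (log2 fold change -0.47 ± 0.066 SE, adjusted p = 2.39e-05). Pmvk was also lower in WT Th1 cells, at -0.37 ± 0.09 SE (log2; adjusted p = 0.00435). No library of these 4 enzymes overlapped between the fates. Hmgcs1, Sqle, Idi1 and Cyp51 did not pass the test, with log2 fold changes of 0.071, 0.018, -0.095 and 0.011 in WT Th1 over WT Th2 cells.

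Among the fatty acid genes, Elovl6 had 34.9, 35.1 and 46.05 CPM in WT Th1 cells, against 60.05, 57.1 and 67.8 CPM in WT Th2 cells (log2 fold change -0.67 ± 0.11 SE, adjusted p = 0.000187). Lpin1 was lower in WT Th1 cells as well, at -0.47 ± 0.10 SE (log2; adjusted p = 0.00129), and neither gene overlapped between the fates. Acaca was the 1 gene that was higher, with 57.9, 57.2 and 44.98 CPM in WT Th1 cells, against 40.8, 45.8 and 33.6 CPM in WT Th2 cells (log2 fold change 0.41 ± 0.12 SE, adjusted p = 0.0129). Its lowest Th1 library stood below the highest Th2 library, and the call was lost without WT Th1 library 1, without WT Th1 library 2 and without WT Th2 library 3. Fasn, Scd1, Scd2 and Fads2 did not pass the test, at 0.29, 0.025, 0.087 and -0.11 (log2). Fasn passed under 5 of 11 alternatives, among them DESeq2 and leaving out WT Th1 library 3 or WT Th2 library 2.

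Both SREBP genes were lower in WT Th1 cells. Srebf1 had 105, 105 and 91.9 CPM in WT Th1 cells, against 138, 126 and 133 CPM in WT Th2 cells (log2 fold change -0.40 ± 0.07 SE, adjusted p = 0.000256). Srebf2 had 308, 315 and 280.00 CPM in WT Th1 cells, against 346, 339 and 344 CPM in WT Th2 cells (log2 fold change -0.19 ± 0.059 SE, adjusted p = 0.0218). Every WT Th1 library of both genes lay below every WT Th2 library. Stard4 was at -0.17 ± 0.061 SE (log2; adjusted p = 0.0404), and this call was lost under 9 of 11 alternatives. The Srebf2 call was lost without WT Th1 library 3 and without WT Th2 library 1, while those of Hsd17b7, Dhcr7, Fdft1, Pmvk, Elovl6, Lpin1 and Srebf1 held under all 11 alternatives run. Insig1 did not pass, at -0.11 (log2).

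KO cells gave 7 calls between Th1 and Th2, where 17.5% of all genes were called. Hsd17b7 had 29.4, 23.6 and 25.9 CPM in KO Th1 cells, against 41.7, 50.8 and 57.2 CPM in KO Th2 cells (log2 fold change -0.94 ± 0.12 SE, adjusted p = 1.62e-05). Dhcr7 had 36.9, 27.5 and 28.99 CPM in KO Th1 cells, against 40.7, 42.7 and 42.6 CPM in KO Th2 cells (log2 fold change -0.45 ± 0.11 SE, adjusted p = 0.00906). Sc5d, a sterol desaturase, was the 1 gene higher in KO Th1 cells, with 35.3, 34.2 and 32.8 CPM, against 25.97, 30.5 and 25.6 CPM in KO Th2 cells (log2 fold change 0.30 ± 0.091 SE, adjusted p = 0.0253). The 3 genes did not overlap between the fates. Elovl6 had 36.7, 45.6 and 44.9 CPM in KO Th1 cells, against 55.1, 62.1 and 67.9 CPM in KO Th2 cells (log2 fold change -0.55 ± 0.11 SE, adjusted p = 0.00179). Acly had 373, 392 and 393 CPM in KO Th1 cells, against 425, 465 and 447 CPM in KO Th2 cells (log2 fold change -0.22 ± 0.067 SE, adjusted p = 0.0267). Srebf1 and Srebf2 were lower at -0.39 ± 0.07 SE and -0.23 ± 0.059 SE (log2; adjusted p = 0.000603 and 0.0101). Neither Elovl6 nor Acly overlapped between the fates. Without KO Th1 library 2 the count of calls was 3, with Sc5d, Acly, Dhcr7 and Srebf2 lost.

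Whether the KO changed the genes differently in the 2 fates was tested as an interaction. None of the 32 genes passed in the edgeR test, and 0.00% of all genes did; 4 of the 32 had an unadjusted p under 0.05, and DESeq2 called 0. The lowest adjusted p was that of Fdft1, at 0.346 (difference of log2 fold changes 0.29 ± 0.094 SE). The plot of Th1 over Th2 fold changes in KO and WT cells shows which genes passed in each genotype.

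**Figure D4:**
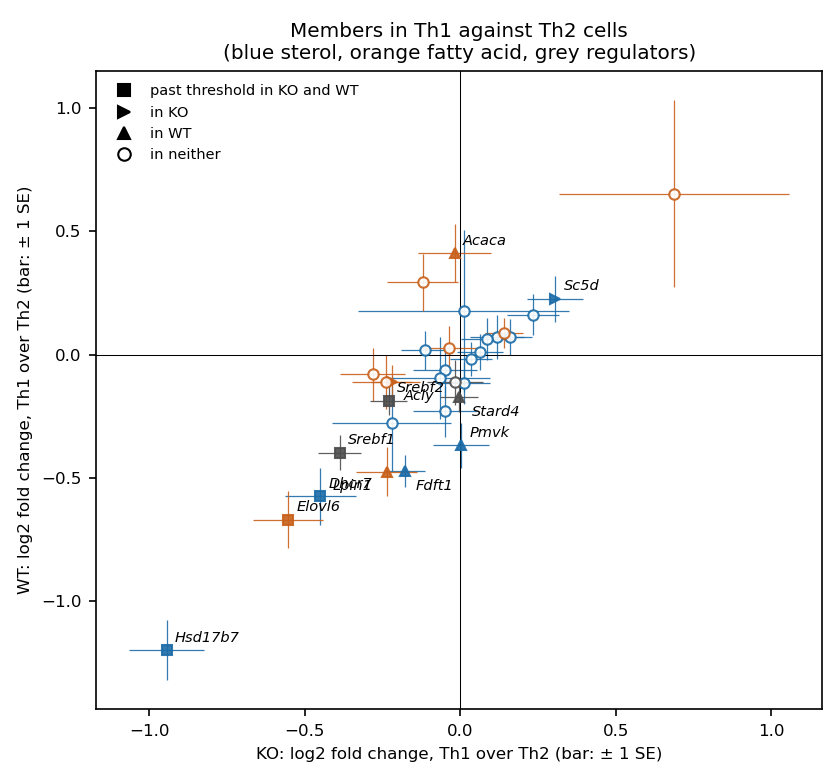
Log2 fold change of each gene in Th1 over Th2 cells, KO on the horizontal and WT on the vertical axis, with bars of 1 standard error; marker shapes show where the adjusted p was under 0.05. Hsd17b7 lies lowest in both genotypes, at -0.94 in KO and -1.20 in WT.

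Other lipid genes differed between the fates too, where 29.5% of all genes passed in WT cells and 17.5% in KO cells. These shares count either direction, and shares by direction are not given. In WT cells 1 of 17 sterol sensing genes was higher in Th1 and 7 were lower, with the cholesterol exporter Abca1 at 1.04 ± 0.19 SE, the acyltransferase Soat1 at -0.69 ± 0.092 SE and Insig2 at -0.58 ± 0.17 SE (log2). Of 8 isoprenoid genes 1 was higher, Fnta at 0.35. Of 17 other fatty acid genes 2 were higher and 5 lower, with Gpam, which starts glycerolipid synthesis, at -0.82, the acetyl-CoA synthetase Acss2 at -0.79 and Acsl4 at 0.48. Of 9 oxidation genes 1 was higher and 3 lower. Cpt1a, the entry enzyme of mitochondrial fatty acid oxidation, had 26.8, 26.7 and 31.2 CPM in WT Th1 cells, against 60.3, 54.7 and 55.5 CPM in WT Th2 cells (log2 fold change -1.01 ± 0.098 SE). In KO cells 1 of 17 sterol sensing genes was higher and 4 lower, 3 of 17 other fatty acid genes were lower, 1 of 9 oxidation genes was higher and 2 lower, and none of 8 isoprenoid genes passed in the edgeR test. There Cpt1a was at -0.92, Gpam at -0.66, Acss2 at -0.46 and Vldlr at -0.50 in Th1 over Th2 cells. Markers of other cells moved with this comparison. The 4 B cell markers summed to 2.37 to 4.45 CPM in WT Th1 cells and 5.38 to 16.6 CPM in WT Th2 cells. The 3 gamma-delta T cell markers summed to 12.9 to 21.7 CPM in WT Th1 cells and 4.67 to 8.85 CPM in WT Th2 cells, and their part in the differences was not tested.

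The third comparison asks what the KO does in naive cells. Of 29 genes tested 5 changed, or 2 sterol enzymes and 3 fatty acid genes, where 17.7% of all 11246 genes tested did, so their share was close to that of all genes. Fdps, Fads2 and Me1 were too low to test. Fads1 had 2.64 and 3.28 CPM in naive KO cells, against 5.92 and 8.24 CPM in naive WT cells (log2 fold change -1.26 ± 0.35 SE, adjusted p = 0.00315). Mvk had 7.58 and 5.97 CPM in naive KO cells, against 11.4 and 12.9 CPM in naive WT cells (log2 fold change -0.86 ± 0.25 SE, adjusted p = 0.00565). Sqle had 9.07 and 11.9 CPM in naive KO cells, against 16.2 and 18.9 CPM in naive WT cells (log2 fold change -0.75 ± 0.21 SE, adjusted p = 0.0032). All 3 were lower in both KO libraries than in either WT library. Fasn had 167 and 145 CPM in naive KO cells, against 180.3 and 183 CPM in naive WT cells (log2 fold change -0.24 ± 0.073 SE, adjusted p = 0.00919). Scd2 was the 1 gene that was higher, with 39.1 and 35.8 CPM in naive KO cells, against 28 and 26.3 CPM in naive WT cells (log2 fold change 0.44 ± 0.14 SE, adjusted p = 0.0112). DESeq2 called 0 of these genes, edgeR gave 6 at an unadjusted p under 0.05, and edgeR called 0 without naive WT library 2, without naive KO library 1 or without naive KO library 2, so the calls rest on 2 libraries against 2.

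The remaining genes of interest did not pass in naive cells. Hmgcs1 had 29.2 and 39.6 CPM in naive KO cells and 34.2 and 36.3 CPM in naive WT cells. Cyp51 had 34.5 and 29.3 CPM in naive KO cells and 39.4 and 33.5 CPM in naive WT cells. Srebf1 had 59.4 and 51.05 CPM in naive KO cells and 48.4 and 61.4 CPM in naive WT cells. The libraries overlapped in all 3. Idi1, Acaca, Scd1, Lpin1, Insig1 and Srebf2 had log2 fold changes of -0.042, -0.12, -0.80, 0.20, 0.13 and -0.11 in KO over WT. Of 16 tested sterol sensing genes 4 were higher and 4 lower in naive KO cells, where 17.7% of all genes changed in either direction. Abca1 was at 1.27 ± 0.13 SE and Scarb1 at -0.99 ± 0.33 SE (log2). Of 16 tested other fatty acid genes 3 were higher and 1 lower, with Slc25a1 at -0.72 ± 0.26 SE, Acsl4 at 0.40 and Acss2 at 0.40 (log2). No gene of the isoprenoid or oxidation lists passed in the edgeR test.

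Other features moved with genotype in the naive libraries. Xist was at 0 in both naive KO libraries and at 393 and 421 CPM in naive WT cells, while Ddx3y, a Y-linked gene, was at 97.3 and 112 CPM in naive KO cells and 0.866 and 0.578 CPM in naive WT cells. Genotype and sex-linked expression therefore cannot be told apart in these 4 libraries. Genes induced by handling of cells were higher by the test in naive KO cells in 7 of 8 cases, where 17.7% of all genes changed in either direction. They summed to 5204 to 5618 CPM in naive KO cells and 3019.6 to 3079 CPM in naive WT cells. Erythroid markers summed to 3.13 to 4.03 CPM in naive KO cells and 15.2 CPM in each naive WT library. The CD8 T cell markers summed to 29.7 to 30.2 CPM in naive KO cells and 14.6 to 14.7 CPM in naive WT cells. Their part in the differences of the lipid genes was not tested.

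The KO effect in naive cells was set against that in Th1 cells in one fit, where 3.05% of all genes passed. Of the 32 genes 3 passed: Sqle at -0.78 ± 0.18 SE (adjusted p = 0.0159), Mvk at -0.87 ± 0.21 SE (adjusted p = 0.0229) and Fads1 at -1.17 ± 0.29 SE (adjusted p = 0.0225), as differences of log2 fold changes, naive minus Th1. Each was lower in KO than in WT in naive cells, while in Th1 cells the log2 fold changes of KO over WT were 0.029 ± 0.077 SE for Sqle, 0.0026 ± 0.10 SE for Mvk and -0.10 ± 0.10 SE for Fads1. DESeq2 also called 3. Without naive WT library 2 none of the 3 was called, without naive KO library 1 only Mvk was, and without naive KO library 2 only Sqle was. The Mvk call was also lost without naive WT library 1 and without KO Th1 library 3. Among other lipid genes the KO effect differed in the same fit for, among others, Abca1 (1.68 ± 0.25 SE) and Slc25a1 (-0.71 ± 0.19 SE).

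In cultured Th1 cells none of the 32 genes passed between KO and WT, where 3.66% of all genes did. Unadjusted p was under 0.05 for 7 genes by edgeR, and DESeq2 called 0. In Th2 cells none passed either, where 0.325% of all genes did, with 1 gene at an unadjusted p under 0.05 and 0 by DESeq2. Fold changes spanned -0.36 (Fdps) to 0.32 (Lpin1) in Th1 cells and -0.19 (Fdps) to 0.23 (Acaca) in Th2 cells on the log2 scale, with median standard errors of 0.089 and 0.091. Missing the threshold does not show that the genotypes were alike. Of 17 other fatty acid genes 2 passed in Th1 cells, Dgat1 at -0.86 ± 0.21 SE and the elongase Elovl5 at 0.34 ± 0.076 SE (log2). Gamma-delta T cell markers were lower in KO Th1 cells, at 3.01 to 6.78 CPM summed in KO Th1 cells and 12.9 to 21.7 CPM in WT Th1 cells.

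**Figure D5:**
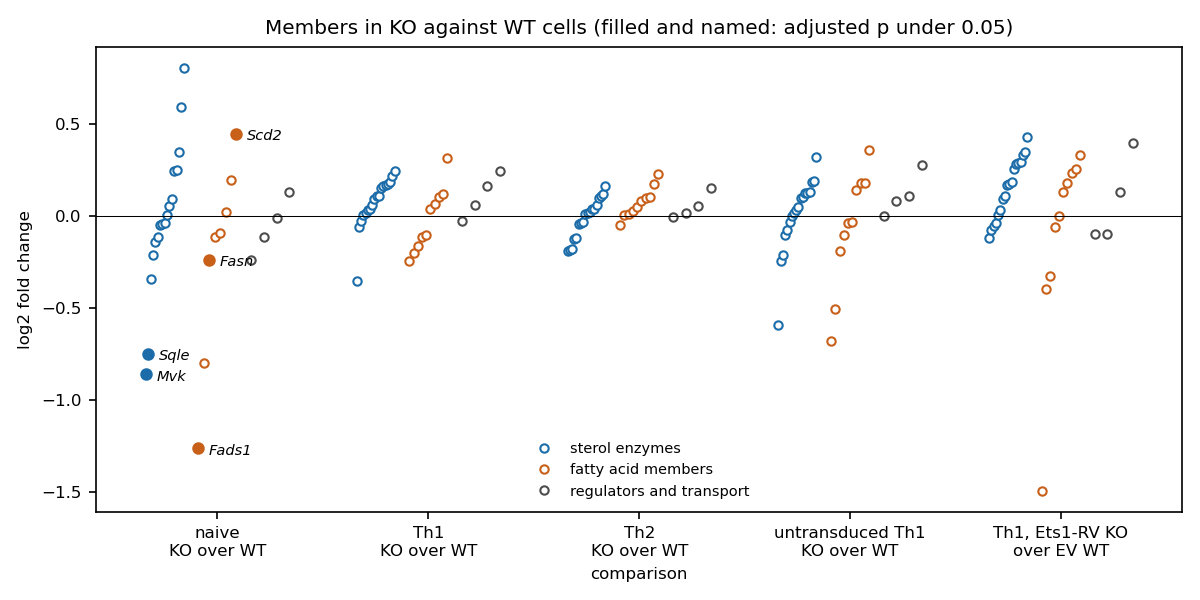
Log2 fold change of each gene tested, KO over WT, in naive, Th1, Th2 and untransduced Th1 cells and for Ets1-RV KO over EV WT Th1 cells; filled and named points had an adjusted p under 0.05. Named points occur only in the naive comparison, for Fads1, Mvk, Sqle, Fasn and Scd2.

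Lpin1 came nearest in Th1 cells, with 88.1, 73.99 and 93.3 CPM in KO Th1 cells, against 61.2, 77.5 and 64.3 CPM in WT Th1 cells (log2 fold change 0.32 ± 0.099 SE, adjusted p = 0.0866), and the libraries overlapped. Without WT Th1 library 2 or without KO Th1 library 2 it passed, at 0.42 and 0.41 on the log2 scale. Fasn had 299.7, 258 and 301 CPM in KO Th1 cells and 389, 355 and 263 CPM in WT Th1 cells, and without WT Th1 library 3, its lowest WT library, it passed at -0.40 and Acly at -0.23. Hmgcs1 had 189, 179.8 and 177 CPM in KO Th1 cells and 179, 152 and 171 CPM in WT Th1 cells. KO and WT libraries overlapped in both genes.

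Other sterol enzymes did not pass either. Pmvk, Fdft1, Sc5d and the carrier Stard4 were higher in every KO Th1 library than in any WT Th1 library. The share of all genes separated in this way was not counted. Such separations, here and below, therefore only describe the libraries. Fdft1 had 144, 138 and 142 CPM in KO Th1 cells, against 129, 126 and 117 CPM in WT Th1 cells. Pmvk had 45.5, 38.4 and 38.01 CPM in KO Th1 cells, against 36.2, 32.4 and 33.03 CPM in WT Th1 cells. Sc5d had 35.3, 34.2 and 32.8 CPM in KO Th1 cells, against 29.3, 28.4 and 31.4 CPM in WT Th1 cells. Sqle had 89.1, 80.6 and 88.5 CPM in KO Th1 cells and 89.5, 83.1 and 77.8 CPM in WT Th1 cells. Cyp51 had 163, 163 and 147 CPM in KO Th1 cells and 157, 138 and 144 CPM in WT Th1 cells. Idi1 had 10.02, 7.87 and 9.11 CPM in KO Th1 cells and 6.84, 9.96 and 7.33 CPM in WT Th1 cells. Libraries of Sqle, Cyp51 and Idi1 overlapped. Of the fatty acid genes, Scd1 had 164, 163 and 188 CPM in KO Th1 cells and 189, 151 and 155 CPM in WT Th1 cells. Scd2 had 1393, 1406 and 1423 CPM in KO Th1 cells and 1365, 1323 and 1212 CPM in WT Th1 cells. Acaca had 50.5, 42.5 and 47.5 CPM in KO Th1 cells and 57.9, 57.2 and 44.98 CPM in WT Th1 cells. Scd2 was higher in every KO library than in any WT library, without passing the test (adjusted p = 0.455), while Scd1 and Acaca overlapped. Fads2 had 29.1, 31.6 and 36.6 CPM in KO Th1 cells and 36.6, 33.5 and 34.4 CPM in WT Th1 cells. Insig1 had 72.8, 62.5 and 59.4 CPM in KO Th1 cells and 49.9, 54.4 and 58.2 CPM in WT Th1 cells, with every KO library above every WT library (adjusted p = 0.156). Srebf1 had 107, 104 and 107 CPM in KO Th1 cells and 105, 105 and 91.9 CPM in WT Th1 cells. Srebf2 had 297, 292 and 304 CPM in KO Th1 cells and 308, 315 and 280.00 CPM in WT Th1 cells. Libraries of Fads2, Srebf1 and Srebf2 overlapped between the genotypes.

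In Th2 cells the same genes were again not called. KO Th2 cells had 156, 172 and 157 CPM of Hmgcs1, 87.3, 94.8 and 94.7 CPM of Sqle and 144, 162 and 142 CPM of Cyp51, against 160.05, 165 and 154 CPM of Hmgcs1, 81.5, 87.5 and 78.5 CPM of Sqle and 143, 149.6 and 144 CPM of Cyp51 in WT Th2 cells. KO Th2 cells had 302, 333 and 291 CPM of Fasn, 154, 180.2 and 187 CPM of Scd1 and 1189.8, 1339 and 1269 CPM of Scd2, against 278, 306 and 239 CPM of Fasn, 166, 153 and 168 CPM of Scd1 and 1276, 1160.5 and 1240.3 CPM of Scd2 in WT Th2 cells. KO and WT libraries overlapped in all 6 genes. Mvd had the lowest p, with 40.2, 38.9 and 34.95 CPM in KO Th2 cells, against 42.1, 42.8 and 44.9 CPM in WT Th2 cells (log2 fold change -0.19 ± 0.086 SE, adjusted p = 0.509), and its 3 KO libraries lay below the 3 WT libraries. The regulators had 133, 137 and 142 CPM of Srebf1, 339.8, 351 and 348 CPM of Srebf2 and 60.99, 67.8 and 66.01 CPM of Insig1 in KO Th2 cells, against 138, 126 and 133 CPM of Srebf1, 346, 339 and 344 CPM of Srebf2 and 58.97, 61.6 and 55.3 CPM of Insig1 in WT Th2 cells, with overlap in all 3. Idi1, Acaca, Fads2 and Lpin1 had log2 fold changes of 0.12, 0.23, 0.0088 and 0.078 in KO over WT Th2 cells.

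In the second experiment libraries of 1 B number were summed, which left 2 samples in each group. Levels are listed below per library, but libraries of 1 B number may be repeats of 1 sample. Where all libraries of 2 groups separate, this therefore rests on 2 samples in each group. The share of all genes separated in this way was not counted. In all 4 groups the libraries of B number 1 had at most 0.393 CPM of Xist and 41.4 CPM or more of the Y-linked Ddx3y, and those of B number 2 had at least 247 CPM of Xist and at most 0.283 CPM of Ddx3y. The B number therefore moves with sex-linked expression within each group. None of the 32 genes passed in any of its 4 comparisons by edgeR, and DESeq2 called 0 in each. Untransduced KO over WT had 2 genes at an unadjusted p under 0.05, where 1.24% of all 11072 genes tested passed. Ets1-RV KO over EV WT had 7, where 0.560% of all genes passed. KO with Ets1-RV over untransduced KO had 1, where 0.190% passed, and WT with EV over untransduced WT had 0, where 0.00% passed by either tool.

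Ets1-RV KO and EV WT cells differ both in genotype and in what the virus carried, which cannot be told apart. The mean summary level of the sterol enzymes was 5.40 in Ets1-RV KO and 5.26 in EV WT cells. It was 5.35 in untransduced KO and 5.37 in untransduced WT cells. For the fatty acid genes it was 6.29, 6.36, 6.20 and 6.29 in that order, with overlapping libraries. For the sterol enzymes every EV WT library lay below every Ets1-RV KO and every untransduced WT library. The same held for the sterol minus fatty acid level. These summaries were not tested. Fads2 had the lowest p between untransduced KO and WT cells, and Stard4 between Ets1-RV KO and EV WT cells. Fads2 had 22.96 and 21 CPM in untransduced KO cells, against 31.2 and 40.6 CPM in untransduced WT cells (log2 fold change -0.68 ± 0.22 SE, adjusted p = 0.149), without overlap. It had 30.2, 24.2, 38.6 and 36.8 CPM in Ets1-RV KO cells and 38.6, 41.2, 52.3 and 42.3 CPM in EV WT cells, where the highest Ets1-RV KO library met the lowest EV WT library. Stard4 had 119.8, 118, 135 and 146 CPM in Ets1-RV KO cells, against 91.9, 97.1, 116 and 92.96 CPM in EV WT cells (log2 fold change 0.40 ± 0.14 SE, adjusted p = 0.326), and every Ets1-RV KO library lay above every EV WT library. Pmvk and Me1 had the outermost fold changes of Ets1-RV KO over EV WT, at 0.43 and -1.49 (log2), Me1 on very low counts.

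For the sterol enzymes, Hmgcs1 had 242, 261, 322 and 291 CPM in Ets1-RV KO cells, 229, 225, 218 and 209 CPM in EV WT cells, 232 and 297 CPM in untransduced KO cells and 279 and 239 CPM in untransduced WT cells. Sqle had 68.3, 61.7, 74.02 and 68.8 CPM in Ets1-RV KO cells, 82.9, 74.7, 64.4 and 65.1 CPM in EV WT cells, 74.8 and 75.4 CPM in untransduced KO cells and 79.6 and 60.3 CPM in untransduced WT cells. Cyp51 had 151, 151, 189.8 and 182 CPM in Ets1-RV KO cells, 142, 134, 134 and 139 CPM in EV WT cells, 132 and 175 CPM in untransduced KO cells and 158 and 151 CPM in untransduced WT cells. Every Ets1-RV KO library of Hmgcs1 and Cyp51 lay above every EV WT library, with adjusted p of 0.492 and 0.582, while Sqle overlapped. Idi1 had 18.8, 19.9, 22.9 and 23.2 CPM in Ets1-RV KO cells, 18.2, 20.4, 18.3 and 18.3 CPM in EV WT cells, 18.9 and 15.4 CPM in untransduced KO cells and 20.2 and 21.1 CPM in untransduced WT cells. Idi1 overlapped between Ets1-RV KO and EV WT cells and was lower in both untransduced KO libraries than in either untransduced WT library (adjusted p = 0.71).

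For the fatty acid genes, Fasn had 365, 357, 519.9 and 500.3 CPM in Ets1-RV KO cells, 481, 471, 437 and 428 CPM in EV WT cells, 514 and 419 CPM in untransduced KO cells and 411 and 451 CPM in untransduced WT cells. Scd1 had 270.1, 287, 271 and 239 CPM in Ets1-RV KO cells, 185, 187, 243 and 239 CPM in EV WT cells, 237 and 269 CPM in untransduced KO cells and 209 and 245 CPM in untransduced WT cells. Scd2 had 1511, 1544, 1406 and 1388 CPM in Ets1-RV KO cells, 1195, 1219.7, 1281 and 1219 CPM in EV WT cells, 1602 and 1634 CPM in untransduced KO cells and 1222 and 1343 CPM in untransduced WT cells. Scd2 was higher in every Ets1-RV KO library than in any EV WT library and in both untransduced KO libraries than in either WT one, with adjusted p of 0.553 and 0.198. Acaca had 98.2, 85.5, 91.1 and 86.9 CPM in Ets1-RV KO cells, 89.6, 73.8, 72.5 and 81.5 CPM in EV WT cells, 84.1 and 79.1 CPM in untransduced KO cells and 66.5 and 80.1 CPM in untransduced WT cells. Lpin1 had 38.5, 41.1, 50.02 and 51.8 CPM in Ets1-RV KO cells, 35.1, 41.2, 40.1 and 39.6 CPM in EV WT cells, 44.7 and 38.3 CPM in untransduced KO cells and 46.1 and 41.8 CPM in untransduced WT cells. Libraries of Fasn, Scd1, Acaca and Lpin1 overlapped between Ets1-RV KO and EV WT cells and between untransduced KO and WT cells.

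The regulators gave no call either. Srebf1 had 83.6, 86.2, 87.7 and 91.7 CPM in Ets1-RV KO cells, 97.5, 108, 84.7 and 83.4 CPM in EV WT cells, 113 and 69.8 CPM in untransduced KO cells and 89.03 and 86.2 CPM in untransduced WT cells. Srebf2 had 260.3, 262, 329.9 and 312 CPM in Ets1-RV KO cells, 311, 331, 302 and 304 CPM in EV WT cells, 347 and 269 CPM in untransduced KO cells and 286 and 309 CPM in untransduced WT cells. Insig1 had 119, 118, 126 and 118 CPM in Ets1-RV KO cells, 113, 104, 117 and 107 CPM in EV WT cells, 98.1 and 124 CPM in untransduced KO cells and 112 and 112 CPM in untransduced WT cells. Srebf1 and Srebf2 overlapped between Ets1-RV KO and EV WT cells and between untransduced KO and WT cells, and Insig1 was higher in every Ets1-RV KO library than in any EV WT library (adjusted p = 0.827). Beside these, 5 of 11 proliferation genes fell in untransduced KO cells, with summed levels of 718 to 746 CPM in untransduced KO cells and 1168 to 1336 CPM in untransduced WT cells.

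The 2 Th1 experiments were not tested against each other, since the experiment, the libraries and their depth differ together. Side by side, Insig1 had 112 and 112 CPM in the untransduced WT Th1 cells of the second experiment and 49.9, 54.4 and 58.2 CPM in the WT Th1 cells of the first. Idi1 had 20.2 and 21.1 CPM in the second and 6.84, 9.96 and 7.33 CPM in the first. Lpin1 had 46.1 and 41.8 CPM in the second and 61.2, 77.5 and 64.3 CPM in the first. The summary level of the sterol enzymes was 5.37 ± 0.026 (SD, n = 2) in the second and 5.12 ± 0.046 (SD, n = 3) in the first, and that of the fatty acid genes was 6.29 ± 0.15 (SD, n = 2) in the second and 6.41 ± 0.036 (SD, n = 3) in the first. The summary was higher for the fatty acid genes than for the sterol enzymes in both experiments.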

How the data were processed

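RNA of 36 libraries had been read with a strand-specific total RNA kit, per the labels' protocols. The authors deposited raw counts per gene and library, made with STAR 2.5.0a on GRCm38 per the submitters' processing notes; annotation and trimming are not named there. Each table held 45706 genes and 4 summary lines, which took 63.6% to 76.0% of tabulated reads and were left out. Counts of column 4, the strand with 93.3% to 95.2% of stranded gene counts, were used. Symbols came from GENCODE M21, which matched 45143 identifiers and not 563.

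Groups came from titles and labels. The 8 libraries with conflicting labels were left out of all comparisons. Within groups, 28 pairs of libraries were set against each other with a chi-square test of their counts, and 0 were identical or within sampling noise. The 32 genes, the other gene lists and the tests were chosen with earlier results of these data known. Named with all values are 13 genes fixed by symbol and, per comparison, up to 4 sterol enzymes, 4 fatty acid genes, 2 regulators and 3 genes per other list with the largest called differences, apart from a few genes not reported here.

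Differences were tested with edgeR 4.0.16 (quasi-likelihood test, TMM factors, genes kept by filterByExpr, p-values adjusted over all of them after Benjamini and Hochberg, threshold 0.05) in R 4.3.3. Naive libraries, the 12 first cultures, both sets jointly, and the second experiment with libraries of 1 B number summed were fitted apart. SE is the standard error of a log2 fold change. Alternatives were DESeq2 1.42.0, relative log expression factors, no filter, counts without strand, a replicate block, libraries not summed, and each library left out. CPM levels use TMM factors over all 36 libraries. Fitting was tested on simulated counts. Floors (3 counts) and intervals cover counting error only, since no molecular identifiers were counted.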

Additional observations from a re-analysis of the deposited data

Results flagged for a closer look

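In groups of 4 libraries, 64 gene and group combinations were examined for a library far from its group by Dixon's ratio, and 4 passed, where chance passes about 1 in 20. In EV WT cells the highest library, a different library for each gene, had 20.4 CPM of Idi1, 45.2 CPM of Nsdhl and 23.2 CPM of Ebp. Each value stood apart from those of the other 3 libraries. In Ets1-RV KO cells 1 library had 126 CPM of Insig1, the other 3 having 118 to 119 CPM.

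The KO effect differed between naive and Th1 cells for Mvk (-0.87), Sqle (-0.78) and Fads1 (-1.17), as differences of log2 fold changes, naive minus Th1, in the edgeR fit over both sets. These rest on 2 naive libraries per genotype that also differ in sex-linked and handling-stress genes, whose part was not tested.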

How the results depend on the processing

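Of the alternatives run, none reversed the direction of a called gene. Refits of single called genes kept the call in 1342 cases and lost it in 66, and of 3677 refits of genes not called 23 gained one. Most refits of called genes were of cultured over naive cells, with 31 or 32 called genes per comparison, against at most 10 in any other. The pooled count thus says little about calls in the other comparisons. Besides those named elsewhere, gained calls were Pmvk in naive KO over WT without naive WT library 1, Fdps in KO Th1 and Th2 over naive with counts without strand and without KO Th1 library 3 or KO Th2 library 1, and in KO Th1 over Th2 Msmo1 without the filter, Fads1 with the replicate block or without KO Th1 library 3 and Fads2 without KO Th2 library 1. DESeq2 called 0 of the 32 genes between naive KO and WT cells, where edgeR called 5, and 865 of all genes against 1987. Without the filter the counts were 2 between KO and WT Th1 cells (Fasn and Lpin1), 1 for the KO effect in Th1 minus Th2 cells (Fasn, -0.42) and 1 between untransduced KO and WT cells (Fads2, -0.70), with 835, 213 and 416 of all genes called. Without summing libraries, Ets1-RV KO over EV WT gave 1 (Stard4, 0.39) and 441 of all genes against 62, untransduced KO over WT gave 266 against 137, and Ets1-RV KO over untransduced KO gave 126 against 21. Leaving out 1 library at a time gave 0 to 5 calls for naive KO over WT, 0 to 2 for KO over WT Th1 cells, 3 to 7 for KO Th1 over Th2, 8 to 11 for WT Th1 over Th2, 0 to 3 for the KO effect in naive minus Th1 cells and 30 to 32 for cultured over naive cells. No calls arose in the other comparisons on leaving out a library.

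The summary of WT cultured minus naive cells depended on its form. For the sterol enzymes in Th1 it was 1.69, 1.83 with a pseudocount of 0.1 and 2.00 from summed CPM. In Th2 it was 1.83, 1.97 and 2.13, and 1.78 with raw library totals. For the fatty acid genes it was 2.62, 3.27 and 2.39 in Th1, and 2.64, 3.28 and 2.36 in Th2. The cause was not tested.

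Same-numbered libraries correlated at -0.19 to 0.34 in the first cultures, where different numbers gave -0.29 to 0.25. Same numbers gave -0.049 in naive cells and 0.071 to 0.48 in the second experiment, where the number moves with sex-linked expression. In these 2 sets a group has only 2 samples, so different numbers give the same values with the sign reversed and add no information. The labels do not say what a number marks, and the second experiment has only 2, so the tests reported carry no block. With the number as a replicate block, calls were 5 in naive cells, 10 for WT Th1 over Th2, 8 for KO Th1 over Th2 and 0 in each of the other comparisons fitted with it. The block moved calls over all genes to 63 from 41 for KO over WT Th2, to 212 from 137 for untransduced KO over WT, to 95 from 62 for Ets1-RV KO over EV WT and to 45 from 21 for Ets1-RV KO over untransduced KO.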

Other observations

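The 8 libraries whose title and transduction label disagree came from Th1 cells of the second experiment and are given as values only. Their sterol enzyme level, the mean of log2(CPM + 1), ran from 5.21 to 5.41 with a median of 5.27, and their fatty acid level from 6.17 to 6.37 with a median of 6.27. Gene counts in these libraries were 1598409 to 6131170. Fads2 had 19.8 to 44.3 CPM with a median of 33.3 CPM and Scd2 had 1108 to 1453 CPM with a median of 1281 CPM.

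Genes of the isoprenoid branches, which use products of the sterol pathway, changed in both directions. By the test 2 of 8 were higher and 2 lower in WT Th1 over naive WT cells, where 40.0% of all genes were higher. The 8 genes had a median log2 fold change of -0.13, while the 18 sterol enzymes had 1.97 and the 11 proliferation genes 4.43. The acetyl-CoA synthetase gene Acss2, another source of cytosolic acetyl-CoA beside Acly, fell: it had 13.2, 12.3 and 14 CPM in WT Th1 cells, against 37.2 and 49.4 CPM in naive WT cells (log2 fold change -1.80 ± 0.12 SE, adjusted p = 1.2e-12 by edgeR).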
